A study of Homo sapiens with 6 samples.

Results

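A set of 10 genes of Nodal signalling was followed in PA1 cells after knockdown of the transcription factor SOX2: the ligand genes NODAL, GDF1 and GDF3, the co-receptor gene TDGF1, the antagonist genes LEFTY1, LEFTY2 and CER1, and the genes of the intracellular effectors FOXH1, SMAD2 and SMAD3. They were chosen as a pathway list by gene symbol, with earlier results of these data known. All 10 were among the 59653 gene symbols of the count table, and 5 of them were among the 17592 genes with enough counts to be tested. PA1 is an established human ovarian teratocarcinoma line, labelled wildtype in genotype. Cells growing attached were transfected either with a negative control small interfering RNA (siRNA), giving the control siRNA group of 3 libraries, or with siRNA against SOX2, giving the SOX2 siRNA group of 3 libraries. The labels mention 2 SOX2 siRNAs without saying how they were shared between libraries. In both groups the cells spent 24 h attached after transfection and a further 72 h on poly-HEMA, a coating to which cells do not adhere, before polyadenylated RNA was sequenced.

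Nodal is a secreted ligand of the TGF-beta superfamily that signals through activin receptors when an EGF-CFC co-receptor, TDGF1 (Cripto) or CFC1 (Cryptic), is present. The activated receptors phosphorylate SMAD2 and SMAD3, which join SMAD4 and reach target genes with DNA-binding partners such as FOXH1. LEFTY1, LEFTY2 and CER1 are secreted inhibitors and are themselves known target genes, so the pathway carries negative feedback. In embryos Nodal signalling specifies mesendoderm, and in human pluripotent cells Nodal or activin signalling helps to hold the undifferentiated state.

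After SOX2 siRNA the antagonist gene CER1 rose 5.67-fold and LEFTY2, at a low level, rose 4.51-fold, while FOXH1 fell to 53.5% of its control level. SMAD2 and SMAD3 did not pass the test in either direction. NODAL and TDGF1 had at most 3 counts in any library of either group, so CER1 and LEFTY2 rose in cells where the ligand and the classical co-receptor were at the limit of detection. Of the 5 members tested, 2 were higher and 1 was lower. Over all tested genes 28.2% were called at a Benjamini-Hochberg adjusted p under 0.05 by edgeR's quasi-likelihood test, 14.8% higher and 13.4% lower. LEFTY2 entered the test only through its SOX2 siRNA libraries, so its presence among the calls is no support for the count.

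The stretches of DNA just before the start sites of CER1 and of 3 other genes are shown because CER1 rose together with the target genes MIXL1 and EOMES, while NODAL stayed near 0. Each is the 250 bases upstream of a RefSeq start site (GRCh38.p14), written in the direction of transcription, and 6 of the 10 members had an entry in that table; LEFTY1, LEFTY2, TDGF1 and FOXH1 did not. Capitals mark the FOXH1 core AATACACA or AATCCACA, the SOX core ACAAT, the SMAD core CAGAC and the T-box core GGTGTGA, each searched on both strands; the motifs were chosen with these sequences in view.
CER1, chr9:14722734-14722983, minus strand: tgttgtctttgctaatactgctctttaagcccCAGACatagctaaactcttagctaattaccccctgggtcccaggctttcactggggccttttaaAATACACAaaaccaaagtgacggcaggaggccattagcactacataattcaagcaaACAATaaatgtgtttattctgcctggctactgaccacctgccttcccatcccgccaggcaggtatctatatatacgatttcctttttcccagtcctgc
MIXL1, chr1:226223414-226223663, plus strand: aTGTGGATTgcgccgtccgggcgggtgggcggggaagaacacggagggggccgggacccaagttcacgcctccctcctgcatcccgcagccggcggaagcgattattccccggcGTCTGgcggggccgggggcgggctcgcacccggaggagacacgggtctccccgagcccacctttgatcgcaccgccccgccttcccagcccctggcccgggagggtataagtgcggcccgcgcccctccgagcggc
EOMES, chr3:27722324-27722573, minus strand: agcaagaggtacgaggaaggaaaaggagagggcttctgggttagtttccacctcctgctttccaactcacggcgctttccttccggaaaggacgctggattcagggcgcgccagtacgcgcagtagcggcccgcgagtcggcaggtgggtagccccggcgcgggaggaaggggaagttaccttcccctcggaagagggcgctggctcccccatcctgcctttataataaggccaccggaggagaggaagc
NODAL, chr10:70441682-70441931, minus strand: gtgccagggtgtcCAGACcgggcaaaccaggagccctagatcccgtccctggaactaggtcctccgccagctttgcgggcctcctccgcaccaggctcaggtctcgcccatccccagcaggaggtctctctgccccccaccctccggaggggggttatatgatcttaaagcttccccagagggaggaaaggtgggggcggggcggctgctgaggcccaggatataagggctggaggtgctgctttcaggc

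The CER1 window held the FOXH1 core AATACACA at position -154 from the start site, a SOX core at -98 and a SMAD core at -218. The MIXL1 window held AATCCACA on the opposite strand at -249 and a SMAD core on the opposite strand at -136. The NODAL window held a SMAD core alone, at -237, and the EOMES window held none of the 5 motifs. Members whose windows are not shown held such cores too. The GDF3 window held SOX cores at -190 and -10 on the opposite strand. A SMAD3 window held a SOX core at -53 and a SMAD core at -133, both on the opposite strand, and another held SMAD cores. The GDF1 and SMAD2 windows held none of the motifs. Among 35116 promoter windows of this length, AATACACA occurred in 0.666%, AATCCACA in 0.709%, GGTGTGA in 2.76%, ACAAT in 24.6% and CAGAC in 38.0%. A match of letters is a description of the window and not evidence of binding.

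Before the members, the knockdown itself was checked. SOX2 had 8093, 6647 and 7396 counts in control siRNA libraries 1 to 3 and 1564, 1776 and 1513 counts in SOX2 siRNA libraries 1 to 3, which left 20.5% of the control level (log2 fold change -2.28, SE 0.0437, edgeR adjusted p = 5.97e-16). Libraries held 25152313 to 32753184 counts, and 3 counts, taken here as the floor of detection, were worth 0.0909 to 0.120 CPM (counts relative to TMM-scaled library size). Floors, and the intervals of ratios of pooled counts, cover counting error only, whereas intervals of log2 fold changes come from edgeR's fit and include the spread between libraries. Of 10 markers of embryonal carcinoma or pluripotent cells, 8 were tested, with 4 higher and 1 lower, against 28.2% called of all tested genes. The 10 markers summed to 2778 to 2839 CPM in control siRNA and 2772 to 2837 CPM in SOX2 siRNA libraries. These near-equal sums hide opposite changes. Mean PODXL went from 1316 to 671 CPM, LIN28A from 706 to 1148 CPM and LIN28B from 239 to 359 CPM. POU5F1 and DNMT3B were the others called higher. DPPA4 and L1TD1 were low, averaging 3.05 and 1.79 CPM in control siRNA libraries. TDGF1 and ZFP42, 2 defining markers, were at or under 3 counts throughout. The 3 endothelial markers PECAM1, CDH5 and KDR were all lower after SOX2 siRNA, with summed levels of 85.6 to 89.5 against 59.3 to 61.7 CPM. The 5 yolk sac markers summed to 3.98 to 5.45 against 2.66 to 4.41 CPM, with TTR at or under 3 counts and none of 3 tested called. The 3 muscle markers summed to 8.54 to 9.94 against 7.56 to 8.55 CPM, with MYOD1 and MYOG at or under 3 counts. The 5 trophoblast markers summed to 0.120 to 0.364 against 0.0309 to 1.07 CPM, with CGA, GCM1 and PSG1 at or under 3 counts. The 4 leukocyte markers summed to 0.484 to 0.636 against 0.804 to 0.961 CPM, with CD14 higher and PTPRC and CD3E at or under 3 counts. The part of any of these in the results below was not tested. In bulk libraries, fewer cells of a kind and less RNA per cell cannot be told apart. Nothing in the labels says that the 3 libraries of a group came from separate cultures, so the p-values measure only the spread between these libraries.

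**Figure D1:**
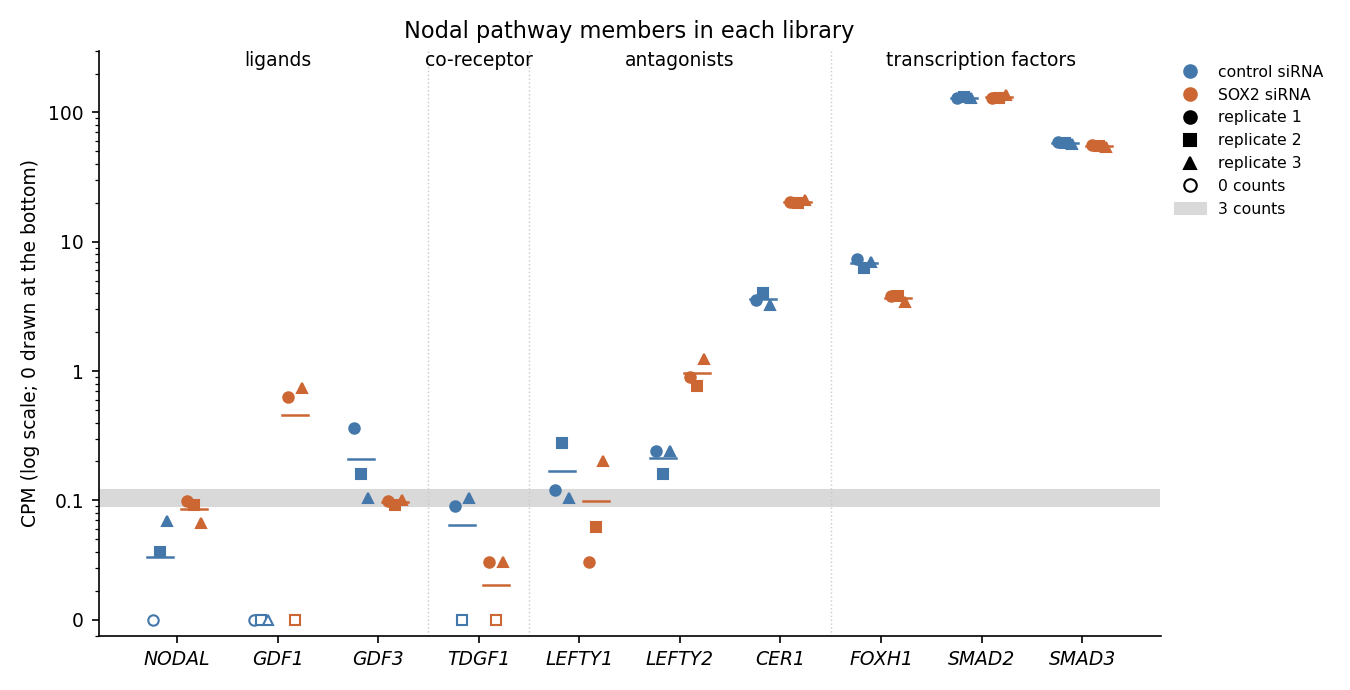
Expression of each of the 10 members in each library, in CPM on a log axis, with open symbols at the bottom for libraries at 0 counts, bars for group means and a grey band for the value of 3 counts. CER1 is between 3.25 and 3.99 CPM in control siRNA libraries and between 19.9 and 20.9 CPM in SOX2 siRNA libraries, whereas NODAL and TDGF1 do not rise above the grey band in either group.

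Counts of the ligand genes NODAL and GDF3 were low, and those of GDF1, given below, cannot be separated from the overlapping gene CERS1. NODAL (chr10:70432315-70447951, minus strand) had 0, 1 and 2 counts in control siRNA libraries 1 to 3 and 3, 3 and 2 counts in SOX2 siRNA libraries 1 to 3. The groups touched at 2 counts, all 6 libraries were at or under the floor, and no fold is given. In GENCODE 29, 41.2% of its exonic bases overlap AC022532.1 on the opposite strand, which had 16 to 26 counts per library. The groups summed to 3 and 8 NODAL counts, and a difference was not detectable at this depth.

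GDF3 (chr12:7689782-7695776, minus strand), a Nodal-related ligand gene expressed in pluripotent cells, had 12, 4 and 3 counts in control siRNA libraries and 3 in each SOX2 siRNA library. The highest value came from control siRNA replicate 1, and the other control libraries lay close to the SOX2 siRNA libraries. The pooled counts of 19 against 9 gave a ratio of control siRNA to SOX2 siRNA of 2.24, with a 95% counting interval of 0.967 to 5.63 that included no difference. Without the low-count filter the adjusted p was 0.345 (edgeR).

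GDF1 (chr19:18868545-18896096, minus strand), which encodes a ligand that can pair with Nodal, had 0 counts in all 3 control siRNA libraries and 19, 0 and 22 counts in SOX2 siRNA libraries 1 to 3. One SOX2 siRNA library was therefore at 0 like the control libraries, while the others were well above the floor, and no fold is given. GDF1 is transcribed from the same locus as the ceramide synthase gene CERS1, and in GENCODE 29 all of its exonic bases lie within CERS1 exons and 100% of its 31-base stretches occur in CERS1 transcripts. CERS1 had 545, 329 and 435 counts against 511, 546 and 459, and was not called (log2 fold change 0.13, edgeR adjusted p = 0.254). Summing the GDF1 and CERS1 rows gave a log2 fold change of 0.17 (adjusted p = 0.124, edgeR). Reads of the genes cannot be told apart over the exons of GDF1. Without the low-count filter GDF1 alone passed the test (edgeR adjusted p = 2.17e-06), as it did with SOX2 siRNA replicate 2, the library at 0, left out (3.48e-05). With any 1 control siRNA library left out it was tested and not called (edgeR adjusted p = 0.297 to 0.338).

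The classical co-receptor gene was also near 0. TDGF1 (chr3:46574534-46582463, plus strand), encoding Cripto and usually abundant in pluripotent and embryonal carcinoma cells, had 3, 0 and 3 counts in control siRNA libraries and 1, 0 and 1 in SOX2 siRNA libraries. All libraries were at or under the floor and the groups overlapped. Its processed pseudogene TDGF1P3, which shares 47.9% of the 31-base stretches of TDGF1, had 0 counts in all 6 libraries.

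The other EGF-CFC gene rose. CFC1 (chr2:130592168-130599575, minus strand), encoding Cryptic, had 2, 5 and 0 counts in control siRNA libraries 1 to 3 and 37, 42 and 44 counts in SOX2 siRNA libraries 1 to 3. The groups did not overlap, and control siRNA replicate 3 was at 0. Pooled counts of 7 against 123 gave a ratio of 16.5 (95% counting interval 7.79 to 42.0), and the fitted log2 fold change was 3.97 (SE 0.482, edgeR adjusted p = 1.20e-05). Like LEFTY2, CFC1 passed the filter only through its SOX2 siRNA libraries. Its near-identical copy CFC1B, which shares 92.3% of its 31-base stretches, had 2, 0 and 3 counts against 0, 0 and 0. Summed, the CFC1 and CFC1B rows held 4, 5 and 3 against 37, 42 and 44 counts, a log2 fold change of 3.23 (adjusted p = 9.13e-07, edgeR). Leaving out control siRNA replicate 2, the highest control library, gave 5.20 for CFC1 alone.

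Among the antagonists, CER1 (Cerberus, an inhibitor that binds Nodal and BMP ligands outside the cell) gave the clearest change. The gene lies at chr9:14719724-14722717 on the minus strand and none of its exonic bases overlap another annotated gene. CER1 had 117, 100 and 94 counts in control siRNA libraries 1 to 3 and 615, 645 and 623 counts in SOX2 siRNA libraries 1 to 3. The libraries of each group lay close together and far from those of the other. Mean CER1 expression went from 3.60 ± 0.373 to 20.4 ± 0.453 CPM (n = 3, SD), with a log2 fold change of 2.51 (SE 0.0866, 95% interval 2.32 to 2.69, edgeR adjusted p = 5.39e-13). This was rank 34 from the top of the 17592 tested genes by fold change and rank 37 by p. By exact permutation of the libraries alone, two-sided, p was 0.1, and 3 libraries a group cannot give less.

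LEFTY2 (chr1:225936598-225941489, minus strand), an extracellular inhibitor of Nodal and its co-receptor, had 8, 4 and 7 counts in control siRNA libraries and 27, 25 and 37 counts in SOX2 siRNA libraries. All 3 SOX2 siRNA libraries were above all 3 control siRNA libraries. The means were 0.215 ± 0.0477 and 0.969 ± 0.241 CPM (SD, n = 3), with a log2 fold change of 2.13 (SE 0.339, 95% interval 1.41 to 2.85, edgeR adjusted p = 1.27e-04).

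LEFTY1 (chr1:225886282-225911382, minus strand), its neighbour and near copy, had 4, 7 and 3 counts against 1, 2 and 6, and the groups overlapped. The pooled ratio of SOX2 siRNA to control siRNA was 0.605 (95% counting interval 0.231 to 1.5), which includes no difference. The transcripts of the LEFTY genes share 33% of the 31-base stretches of LEFTY1 and 25.7% of those of LEFTY2. In addition, 46.6% of LEFTY1's exonic bases lie in AL117348.2, which had 0 counts in all libraries, and 7.32% of LEFTY2's in AL117348.1. LEFTY2 held 36.4% to 70.0% of their joint counts in control siRNA libraries and 86.0% to 96.4% in SOX2 siRNA libraries. The summed LEFTY rows held 12, 11 and 10 against 28, 27 and 43 counts, a log2 fold change of 1.47 (adjusted p = 0.00147, edgeR), in place of 2.13 for LEFTY2 alone.

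**Figure D2:**
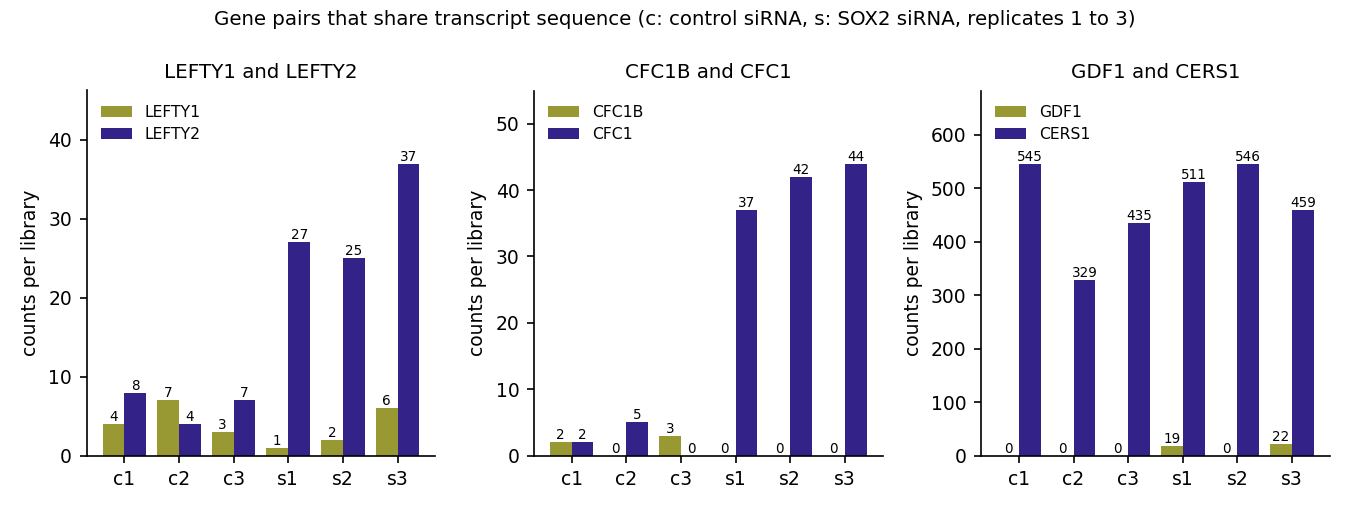
Counts per library for 3 pairs of genes that share transcript sequence, with control siRNA replicates (c1 to c3) on the left and SOX2 siRNA replicates (s1 to s3) on the right of each panel and bars starting at 0. LEFTY2 and CFC1 are higher in all 3 SOX2 siRNA libraries than in any control siRNA library, while GDF1 is at 0 in 4 of the 6 libraries and its partner CERS1 lies between 329 and 546 counts.

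Of the effectors, the DNA-binding partner FOXH1 fell. FOXH1 (chr8:144473412-144476335, minus strand), a forkhead factor that brings phosphorylated SMAD2 to target genes, had 243, 156 and 203 counts in control siRNA libraries and 114, 124 and 102 counts in SOX2 siRNA libraries. Scaled to library size the groups did not overlap, at 6.23 to 7.36 CPM against 3.41 to 3.83 CPM. The means were 6.87 ± 0.583 and 3.68 ± 0.228 CPM (SD, n = 3), a log2 fold change of -0.90 (SE 0.115, 95% interval -1.15 to -0.66, edgeR adjusted p = 1.07e-05). FOXH1 shares 31.6% of its exonic bases with KIFC2 on the opposite strand, and the sources used here do not state whether counting used strand. KIFC2 had 617, 450 and 479 against 579, 612 and 638 counts, a log2 fold change of 0.16 that was not called (edgeR adjusted p = 0.103).

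The genes of the receptor-activated SMADs did not pass the test. SMAD2 (chr18:47808957-47931146, minus strand) had 4275, 3310 and 3724 counts against 3930, 4168 and 4067, or 130 ± 1.74 and 132 ± 3.86 CPM (SD, n = 3), with overlapping groups. Its log2 fold change of 0.02 had a 95% interval of -0.06 to 0.10 (edgeR adjusted p = 0.779), and its sign changed with the setting, from -0.01 to 0.03. SMAD3 (chr15:67063763-67195195, plus strand) had 1952, 1461 and 1647 counts against 1686, 1765 and 1627, or 58.1 ± 1.10 and 55.0 ± 0.768 CPM (SD, n = 3). The SMAD3 libraries did not overlap between groups, at 57.0 to 59.1 against 54.5 to 55.8 CPM, yet the log2 fold change of -0.08 (95% interval -0.17 to 0.01) did not pass the test (edgeR adjusted p = 0.171). Groups without overlap were found for 4 of the 5 tested members and for 41.8% of all tested genes. LEFTY2 is among the 4 and was tested only through its SOX2 siRNA libraries, so it adds no support to this count.

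Levels of different members can be compared per kilobase of exon (CPM divided by the joint exon length in GENCODE 29). In control siRNA libraries the order was SMAD3 at 6.38 ± 0.120, SMAD2 at 3.58 ± 0.0478, CER1 at 2.96 ± 0.307 and FOXH1 at 2.74 ± 0.233 CPM per kb (SD, n = 3); CER1 and FOXH1 did not differ beyond their spread. SMAD2 has an unusually long joint exon length of 36366 bases, which lowers its value. GDF3, LEFTY2, LEFTY1, TDGF1 and NODAL followed at 0.169, 0.0898, 0.0889, 0.0216 and 0.0215 CPM per kb, and GDF1 was at 0. LEFTY2 and LEFTY1 did not differ beyond their spread, nor did TDGF1 and NODAL. In SOX2 siRNA libraries CER1 came first at 16.8 ± 0.373, above SMAD3 at 6.03 ± 0.0843, SMAD2 at 3.62 ± 0.106 and FOXH1 at 1.47 ± 0.0910 CPM per kb. LEFTY2 stood next at 0.405 ± 0.101, then GDF1 at 0.181 ± 0.158 and GDF3 at 0.0787 ± 0.00334 CPM per kb. LEFTY1 at 0.0521 ± 0.0474, NODAL at 0.0510 ± 0.0101 and TDGF1 at 0.00738 ± 0.00640 CPM per kb followed. LEFTY1 did not differ from GDF3 or NODAL beyond the spread. GDF1, at 0 in SOX2 siRNA replicate 2 and not separable from CERS1, has no firm place. CER1 thus changed places from beside FOXH1 to the head of the order per kilobase. That place rests on the division by exon length: in CPM after SOX2 siRNA, CER1 at 20.4 stayed below SMAD2 at 132 and SMAD3 at 55.0.

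The wider pathway was described by 46 further genes, of which 37 were tested. Of these, 12 were higher and 5 lower (45.9% called, against 28.2% of all tested genes). The median log2 fold change was 0.07 against -0.00085 over all tested genes. CFC1, FGF8 and NANOG passed the low-count filter only through the group where they were higher. The lists were also written with earlier results of these data known. The share called is therefore no evidence about the pathway as a whole. Only the named genes of this set were searched for overlaps, and exons of PCSK6, WWTR1, NEDD4L and LHX1 overlap a gene on the opposite strand. PCSK6 also shares 9.17% of its exonic bases with AC023024.2 on the same strand. AC023024.2 had 64, 45 and 48 counts in control siRNA and 32, 37 and 48 in SOX2 siRNA libraries. Among 6 receptor and co-receptor genes, 5 were tested and 2 were higher (40% called, against 28.2% of all tested genes). CFC1, tested only through its SOX2 siRNA libraries, adds no support to this count. The other gene called higher was ACVR1B, encoding the activin and Nodal type I receptor ALK4. ACVR1B had 49.0, 47.3 and 49.1 CPM in control siRNA and 59.5, 54.7 and 52.2 CPM in SOX2 siRNA libraries (log2 fold change 0.19, edgeR adjusted p = 0.00796). The type I receptor gene ACVR1C (ALK7) had a log2 fold change of 0.22 and the type II receptor genes ACVR2A and ACVR2B of 0.04 and -0.07, none of them called. The receptors were thus expressed in both groups, with ACVR2B at 216 ± 5.55 and 205 ± 8.45 CPM (SD, n = 3).

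Of 7 genes for ligand processing and other modulators, 6 were tested, 2 were higher and 1 was lower (50% called, against 28.2% of all tested genes). Of the proprotein convertase genes, FURIN and PCSK6 moved in opposite directions by small amounts, and PCSK5 was not called (log2 fold change 0.19, edgeR adjusted p = 0.562). FURIN went from 90.8 ± 4.47 to 106 ± 2.49 CPM (log2 fold change 0.23, edgeR adjusted p = 5.86e-04) and PCSK6 from 35.6 ± 1.10 to 30.4 ± 0.974 CPM (-0.23, edgeR adjusted p = 0.00287; SD, n = 3). NOMO1, part of a membrane complex reported to restrain Nodal signalling, had a log2 fold change of 0.21 (edgeR adjusted p = 3.64e-04). Sequence that NOMO1 may share with other genes was not searched for. DAND5, a Cerberus-family antagonist, had at most 2 counts in any library.

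The 17 SMAD partners and modulators were all tested and 13 of them were not called; the 23.5% called lies near the 28.2% of all tested genes and is no result about this list. WWTR1 (TAZ, a co-factor that holds SMADs in the nucleus) and NEDD4L (a ubiquitin ligase for activated SMAD2 and SMAD3) were higher, with log2 fold changes of 0.40 and 0.18 (edgeR adjusted p = 1.10e-04 and 0.00666). TGIF1, a co-repressor of SMAD2 targets, and TRIM33, a SMAD-binding ubiquitin ligase, were lower by -0.21 and -0.16 (edgeR adjusted p = 0.00154 and 0.00694); TRIM33 was no longer called without control siRNA replicate 3 (edgeR adjusted p = 0.0610). SMAD4, the common partner of SMAD2 and SMAD3, had a log2 fold change of -0.02 and the feedback inhibitor gene SMAD7 of -0.12, neither called.

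Among 16 genes known as targets of Nodal signalling, 9 were tested. Of these, 6 were higher and 2 lower (88.9% called, against 28.2% of all tested genes). The median log2 fold change was 0.60, with FGF8 and NANOG, each tested only through the group where it was higher, included. The list was written with results of these data in view, so its count is no independent evidence of direction. EOMES, the T-box regulator of mesendoderm, had 143, 111 and 143 counts in control siRNA and 1012, 1068 and 1104 counts in SOX2 siRNA libraries (log2 fold change 2.92, edgeR adjusted p = 2.01e-14). MIXL1, a homeobox gene of the primitive streak, had 50, 45 and 65 against 251, 268 and 300 counts (2.26, edgeR adjusted p = 1.99e-09). In both genes the lowest SOX2 siRNA library was far above the highest control siRNA library.

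FGF8, a growth factor gene of the primitive streak, had 17, 10 and 8 against 73, 80 and 84 counts (log2 fold change 2.67, edgeR adjusted p = 1.97e-07). GATA4, an endoderm and heart regulator, had 6.58 ± 0.689 CPM in control siRNA and 13.2 ± 0.438 CPM after SOX2 siRNA (n = 3, SD; log2 fold change 1.0, edgeR adjusted p = 1.48e-07). The same list held WNT3 and LHX1, at 0.38 and 0.60 (edgeR adjusted p = 7.57e-04 and 0.0148), which are named, after their values were seen, because they complete the genes called higher; LHX1 lost its call without control siRNA replicate 2 or SOX2 siRNA replicate 3 (edgeR adjusted p = 0.0869 and 0.0816). Against these, the pluripotency factor gene NANOG fell by 1.91 on the log2 scale from a low level, with 28, 17 and 27 against 7, 8 and 5 counts (edgeR adjusted p = 3.08e-04); NANOG shares sequence with pseudogene copies. NANOG passed the low-count filter only through its control siRNA libraries and FGF8 only through its SOX2 siRNA libraries, and neither was tested where 10 counts were required in every library, so neither adds support to the count of the list. GATA6 was not called (log2 fold change 0.26, edgeR adjusted p = 0.763), and its sign changed with the setting (-0.15 to 0.59).

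The other target genes of the list had too few counts to be tested. TBXT, the brachyury gene, had 0 counts in all 6 libraries, GSC had 0 in 5 libraries and 2 in SOX2 siRNA replicate 3, and SOX17 had at most 2 counts in any library. EOMES and MIXL1 were higher while these 3 mesendoderm genes stayed under the floor in every library. FOXA2, HHEX, MESP1 and CXCR4 had at most 13 counts in any library.

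**Figure D3:**
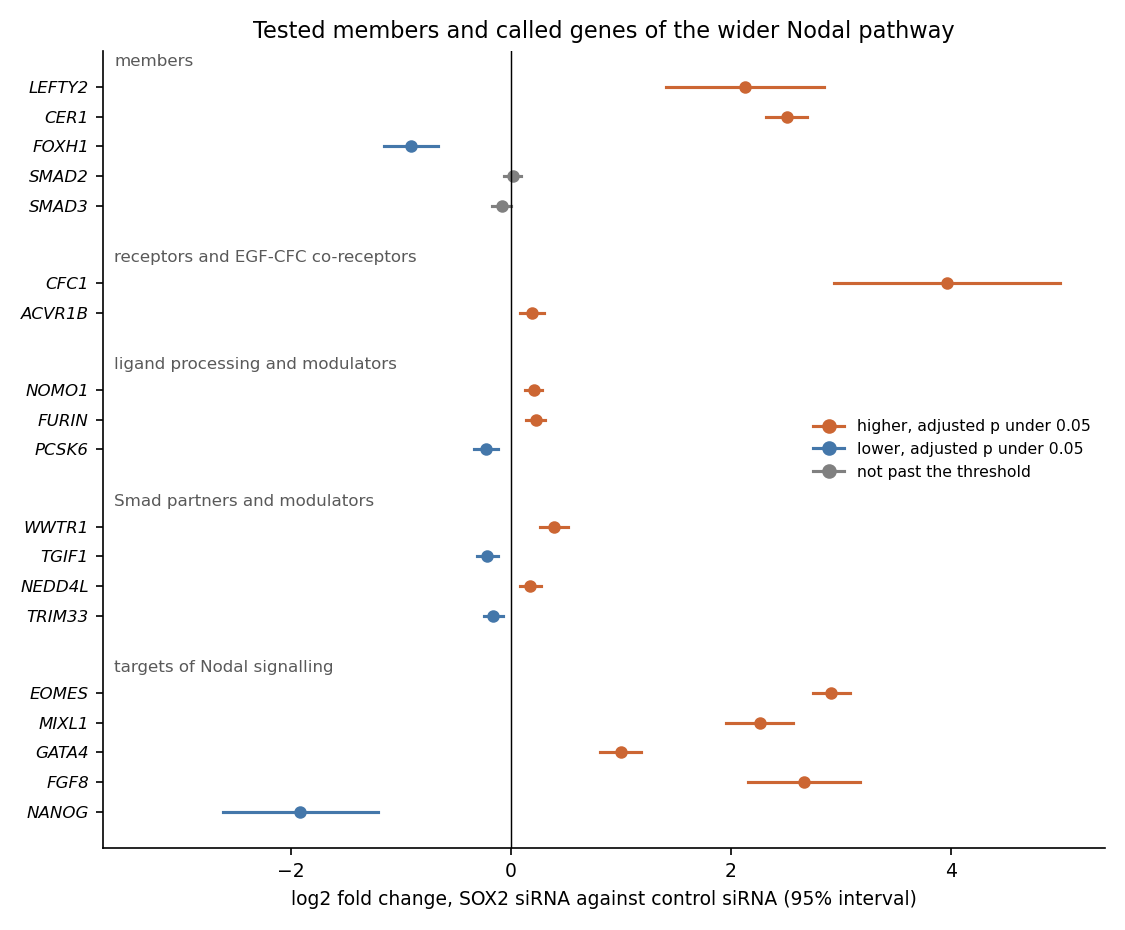
Log2 fold changes of SOX2 siRNA against control siRNA for the 5 tested members and for called genes of each wider list, with 95% intervals from edgeR's fit, coloured by call. CER1, LEFTY2, CFC1, EOMES, MIXL1 and FGF8 lie above 2, FOXH1 lies at -0.90, and the called receptor, processing and SMAD-modulator genes other than CFC1 lie between -0.23 and 0.40.

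The genes whose log2 CPM followed CER1 most closely over the 6 libraries, among the 12115 genes averaging 2 or more on that scale, were RECK, IL17RD and ERBB3, with Pearson r of 0.9996, 0.9986 and 0.9985. All 3 were higher after SOX2 siRNA, by log2 fold changes of 0.61, 0.52 and 0.56, much less than CER1. The 6 points fall into the 2 groups, so these values describe the step between groups and the order of libraries, not the size of the change.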

How the data were processed

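The authors deposited raw counts per gene symbol, 1 column per library, as whole numbers with unequal totals. The submitters' processing notes name bcl2fastq 2.20.0, STAR 2.7.3a, Salmon 0.14.1, DESeq2 1.28.1 and build GRCh38.p13, without roles; whether the counts are rounded estimates, the annotation and the use of strand are not given in the sources used here. Per the labels, the library kit was KAPA mRNA HyperPrep.

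Columns were matched to libraries by the identifier in each description, and groups come from the titles. Genes were kept by filterByExpr (minimum count 10), scaled by TMM and tested across all genes with edgeR 4.0.16 (glmQLFit with robust=TRUE, glmQLFTest; R 4.3.3) on group, with Benjamini-Hochberg adjustment and a threshold of 0.05. Standard errors and 95% intervals were derived from the same F statistics. The procedure was tested on simulated data in which every gene had the same spread between libraries beyond counting error. That setting does not model the spread of low-count genes such as LEFTY2 and CFC1. Alternatives used limma 3.58.1 and DESeq2 1.42.0. Pooled ratios of low counts carry exact conditional binomial intervals. GENCODE release 29 gave coordinates, exon lengths and overlaps (GRCh38), and RefSeq gave promoter sequences. The members, the wider lists and the rule for named genes (the members, genes sharing their sequence or exons, and the called genes of lowest p in each list, at most 6) were chosen with earlier results of these data known. One gene that meets the rule is not reported here. No library was left out.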

Additional observations from a re-analysis of the deposited data

How the results depend on the processing

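CER1 and FOXH1 kept their direction and their call under all 15 alternatives, with log2 fold changes of 2.44 to 2.58 and -0.97 to -0.85. LEFTY2 kept its call under every alternative that could test it, with log2 fold changes up to 2.27, and when summed with LEFTY1 (1.47). SMAD2 and SMAD3 were not called under any alternative (adjusted p 0.680 to 0.970 and 0.0843 to 0.391). With at least 10 counts required in every library the members called higher fell from 2 to 1, because LEFTY2 was then not tested. Without the low-count filter they were 3, GDF1 being the addition. Leaving out each library in turn gave 2 to 3 members higher, 1 member lower throughout, 11 to 12 wider pathway genes higher, 4 to 6 lower, and 3760 to 4863 genes called among all tested. DESeq2's Wald test called 3923 genes and limma-voom 4700, each with the same 3 members.

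A fit that added a replicate block called 5177 genes against 4964, among them the same 3 members, and the block changed no call of a named gene. The correlations of same-numbered libraries (0.0868, -0.0377 and -0.0311) do not show pairing, and not every library correlated best with its own number. Upper-quartile scaling moved the median log2 fold change to -0.02 and turned the balance of calls over all genes, with 45.8% of 5045 called genes higher in place of 52.4%. The sum of GDF1 with CERS1 and that of CFC1 with CFC1B were chosen after seeing the data, and TDGF1 with TDGF1P3 summed could not be tested for lack of counts. Depth limits NODAL, TDGF1, GDF3 and LEFTY1, whose counts allow only wide ratios.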
